A study of Stylosanthes guianensis with 6 samples.

Results

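The glutathione S-transferase (GST) family was followed in leaves of stylo (Stylosanthes guianensis), a tropical forage legume, through 10 of the 102864 unigenes listed. A unigene stands for a gene in a transcript assembly made without a genome. They are the unigenes that the study's list of defense-related differentially expressed genes (DEGs) describes as glutathione S-transferase. The members were therefore chosen by measured values of these same libraries, namely the authors' DESeq2 comparison of Mn toxicity with control, and the differences of the members between the treatments are given as a description, with no test. Mn toxicity stands for seedlings of the genotype TF303 given 400 μM Mn (as MnSO4) in nutrient solution for 10 d, and control for seedlings given 5 μM Mn for the same time. Both groups had grown for 30 d in full nutrient solution beforehand. Each treatment has 3 libraries of leaf RNA, and 1 library stands for 1 hydroponic box with 4 seedlings. The sample labels write the concentrations in mM, whereas the series design gives μM, which was used. In bulk leaf RNA, more cells of a type and more RNA per cell cannot be told apart.

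GSTs join the tripeptide glutathione to electrophilic compounds, which include products of lipid peroxidation and many herbicides. The conjugates are then moved into the vacuole, in Arabidopsis by ABC transporters of the C family. Plants have several classes of soluble GSTs. The tau class is specific to plants, large and known for induction by stress. Lambda class GSTs carry a cysteine in the active site and act as thiol transferases. Microsomal GSTs are membrane proteins that share the reaction and not the fold of the soluble enzymes. Mn in excess is known to cause oxidative stress in leaves.

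The deposited values are RPKM, that is, read numbers divided by transcript length and sequencing depth, so levels of different unigenes can be set side by side per length. The RPKM steps gave library totals of 36.2 to 37.8 M reads (megareads) under Mn toxicity and of 31.1 to 37.0 M reads in the control. The libraries were unevenly composed. A set of 40 abundant unigenes, none of them a GST, held 23.6, 1.62 and 38.6% of the reads of Mn toxicity libraries 1, 2 and 3, against 0.966 to 1.78% in the control libraries. The 4 unigenes described as photosystem proteins, which were the leaf markers at hand, were above 0 in all 6 libraries. All 4 match chloroplast sequences. They were high in the same 2 Mn toxicity libraries, as in the D1 protein unigene TRINITY_DN43869_c1_g4 with 710, 45.5 and 1267 RPKM, against 37.2, 72.3 and 58.7 RPKM in the control. The D1 unigene is itself among the 40, which were picked for uneven reads, so its likeness to them follows from that choice. When the reads of the 40 unigenes were left out of the library totals, 9 of the GST members and 6 of the other GSTs given below passed the limits for a call, against 8 and 4 as deposited. Over all unigenes tested, 2654 of 31968 passed, against 1787 of 30913 as deposited. Values are therefore given as deposited and, where it matters, after median-of-ratios scaling, which divides each library by its median ratio to the geometric mean of the libraries.

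The 10 unigenes carry descriptions of several classes. TRINITY_DN44854_c0_g3 (GSTU28), TRINITY_DN44699_c1_g13 (GST13) and TRINITY_DN44699_c1_g2 are described as tau class, and TRINITY_DN45343_c2_g10 bears the tau name U18. TRINITY_DN43904_c2_g1 is described as the lambda class protein L3-like and TRINITY_DN46590_c1_g1 as microsomal. The remaining 4 have no class in their descriptions. These are TRINITY_DN44639_c3_g11 and TRINITY_DN46665_c0_g1, both probable GSTs, TRINITY_DN46345_c2_g4, a protein with the amino-terminal GST domain that binds glutathione, and TRINITY_DN45343_c2_g6, named GST 5 with the carboxy-terminal domain. The names come from matches in other legumes, mostly soybean and chickpea. The recovered lengths ran from 324 bp (TRINITY_DN45343_c2_g10) to 3437 bp (TRINITY_DN44699_c1_g2).

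The values of the 2 treatments did not overlap for any of the 10 unigenes, as they did not for 32% of all unigenes tested. Having been selected as DEGs, the 10 had to differ. A total of 8 unigenes were higher under Mn toxicity in all 3 libraries, and TRINITY_DN45343_c2_g10 and TRINITY_DN45343_c2_g6 were lower in all 3. Summed over the 10 unigenes, the level was 198, 171 and 221 RPKM under Mn toxicity, against 75.8, 78.2 and 81.5 RPKM in the control. This corresponds to 0.0209 to 0.0269% of the reads of a Mn toxicity library and 0.00830 to 0.00879% of those of a control library.

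**Figure D1:**
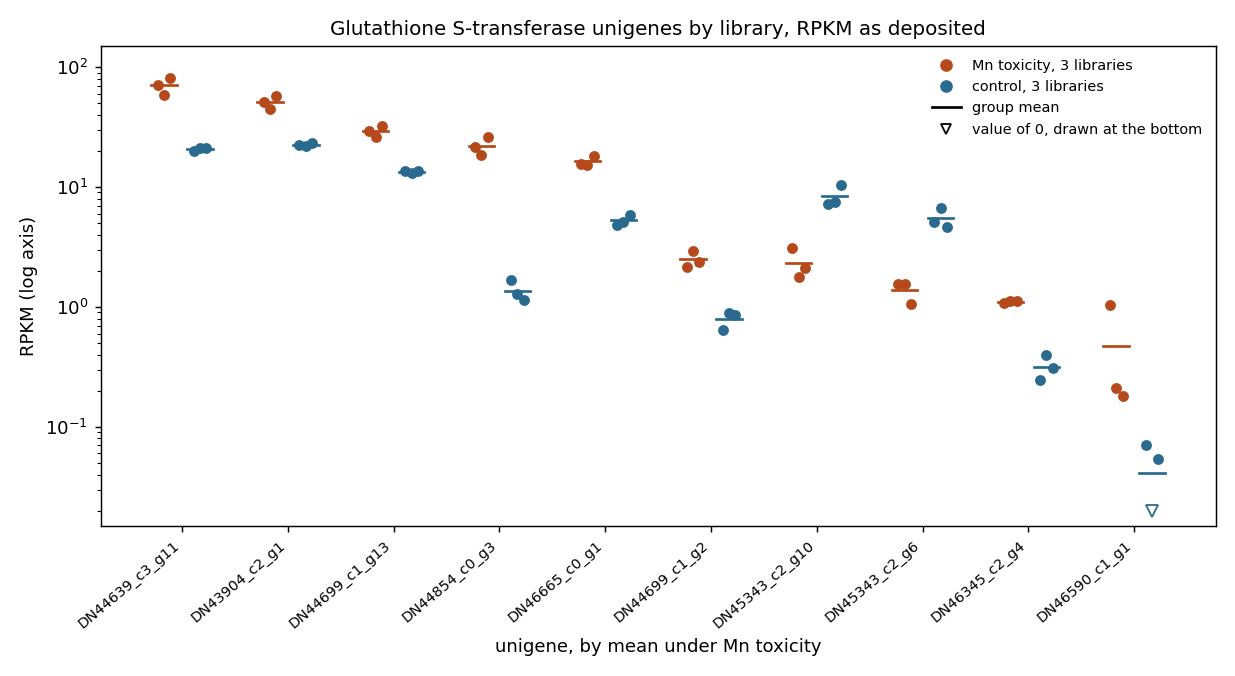
RPKM (log axis) of the 10 GST unigenes in each library, with Mn toxicity at the left and control at the right of each pair, points for libraries, short lines for group means and an open triangle for the value of 0. The ranges of the treatments are separate for each unigene, and the 2 unigenes of component DN45343_c2 are the ones with lower values under Mn toxicity.

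Among the tau class unigenes, TRINITY_DN44854_c0_g3 showed the widest fitted difference of the 10. It had 21.6, 18.6 and 26.0 RPKM under Mn toxicity, against 1.67, 1.29 and 1.14 RPKM in the control. Its lowest Mn toxicity library was 11.1 times its highest control library. The means were 22.1 ± 3.70 RPKM under Mn toxicity and 1.37 ± 0.275 RPKM in the control (SD, n = 3 each), a ratio of 16.1, and the log2 fold change fitted on log2(RPKM + 0.5) was 3.59 (SE 0.26). By level, it stood at percentile 87.3 of the unigenes tested under Mn toxicity and at percentile 22.8 in the control.

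The tau class unigene TRINITY_DN44699_c1_g13 was already well expressed in the control. It had 29.5, 25.9 and 32.4 RPKM under Mn toxicity, against 13.5, 13.1 and 13.5 RPKM in the control, with a ratio of means of 2.19 and a log2 fold change of 1.10 (SE 0.20). TRINITY_DN44699_c1_g2, from the same assembly component, was weaker. Its values were 2.17, 2.95 and 2.38 RPKM under Mn toxicity, against 0.644, 0.895 and 0.851 RPKM in the control (log2 fold change 1.21, SE 0.29). Unlike the other unigenes fitted as higher, it had its highest deposited value in Mn toxicity library 2.

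The fourth unigene with a tau name went in the other direction. TRINITY_DN45343_c2_g10 had 3.11, 1.79 and 2.13 RPKM under Mn toxicity, against 7.26, 7.50 and 10.4 RPKM in the control. The control mean was 3.58 times the Mn toxicity mean, and the log2 fold change was -1.65 (SE 0.29). These values rest on few reads, 21 to 38 in the Mn toxicity libraries and 85 to 105 in the control libraries, because the unigene is short.

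The unigene of the lambda class, TRINITY_DN43904_c2_g1, had the highest level of the 10 in the control. Its values were 51.3, 44.7 and 57.2 RPKM under Mn toxicity, against 22.3, 22.0 and 23.5 RPKM in the control. The means were 51.0 ± 6.26 RPKM under Mn toxicity and 22.6 ± 0.778 RPKM in the control (SD, n = 3 each), with a log2 fold change of 1.15 (SE 0.19). It was the only unigene of its assembly component.

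Of the unigenes without a stated class, TRINITY_DN44639_c3_g11 reached the highest level of the 10 under Mn toxicity. It had 71.3, 58.8 and 80.6 RPKM under Mn toxicity, against 20.1, 21.3 and 21.3 RPKM in the control (log2 fold change 1.71, SE 0.20). The other probable GST, TRINITY_DN46665_c0_g1, had 15.6, 15.3 and 18.2 RPKM under Mn toxicity, against 4.86, 5.10 and 5.84 RPKM in the control (log2 fold change 1.55, SE 0.23). Both had lowest Mn toxicity libraries more than 2 times as high as the highest control library, at 2.76 and 2.62 times.

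TRINITY_DN46345_c2_g4, the protein with the amino-terminal domain, was weakly expressed. It had 1.07, 1.12 and 1.13 RPKM under Mn toxicity, against 0.244, 0.397 and 0.307 RPKM in the control. The ratio of the means was 3.50, while the log2 fold change with 0.5 added was 0.98 (SE 0.29), because the added 0.5 draws low values together. The GST 5 unigene, TRINITY_DN45343_c2_g6, had 1.57, 1.55 and 1.06 RPKM under Mn toxicity, against 5.09, 6.64 and 4.67 RPKM in the control (log2 fold change -1.66, SE 0.28). It lies in the same assembly component as TRINITY_DN45343_c2_g10.

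The microsomal unigene TRINITY_DN46590_c1_g1 was at the edge of detection. It had 1.03, 0.210 and 0.179 RPKM under Mn toxicity, against 0.0702, 0 and 0.0543 RPKM in the control. These values stand for 46, 9 and 8 reads in the Mn toxicity libraries, against 3, 0 and 2 reads in the control libraries. The value of 0 in control library 2 allows up to 3 reads, or 0.0685 RPKM. Adjusted for library totals, the read ratio was 11.8, with an exact 95% interval of 4.79 to 37.5 that covers counting error only. Mn toxicity library 1 held 73.0% of the Mn toxicity reads of this unigene, and without this library the ratio was 4.80 (1.70 to 16.6). Its mean over the 6 libraries was below 0.5 RPKM, so it was not fitted.

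The order of levels changed between the treatments. Under Mn toxicity, TRINITY_DN44639_c3_g11, TRINITY_DN43904_c2_g1 and TRINITY_DN44699_c1_g13 came first, and the ranges of neighbours in the order overlapped for TRINITY_DN44699_c1_g13 with TRINITY_DN44854_c0_g3, TRINITY_DN44699_c1_g2 with TRINITY_DN45343_c2_g10 and TRINITY_DN45343_c2_g6 with TRINITY_DN46345_c2_g4. In the control, TRINITY_DN43904_c2_g1 came before TRINITY_DN44639_c3_g11, TRINITY_DN45343_c2_g10 was the fourth, and the overlapping neighbours were TRINITY_DN45343_c2_g6 and TRINITY_DN46665_c0_g1. TRINITY_DN44854_c0_g3 was the fourth under Mn toxicity and the seventh in the control.

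The share of each unigene in the sum of the 10 does not depend on the scaling of a library. The 2 unigenes of component DN45343_c2 made up 2.36, 1.95 and 1.44% of the sum under Mn toxicity, against 16.3, 18.1 and 18.5% in the control. TRINITY_DN44854_c0_g3 made up 10.9, 10.9 and 11.7% under Mn toxicity, against 2.21, 1.65 and 1.40% in the control. TRINITY_DN44639_c3_g11 held 34.4 to 36.4% under Mn toxicity and 26.1 to 27.2% in the control. By contrast, the lambda class unigene TRINITY_DN43904_c2_g1 took a smaller share under Mn toxicity, 25.8 to 26.1%, than in the control, 28.1 to 29.4%, although its RPKM was higher. Since the 10 were selected as higher or lower in these libraries, the direction of such shares follows in part from the choice. The shares also leave out the other GSTs given below.

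**Figure D2:**
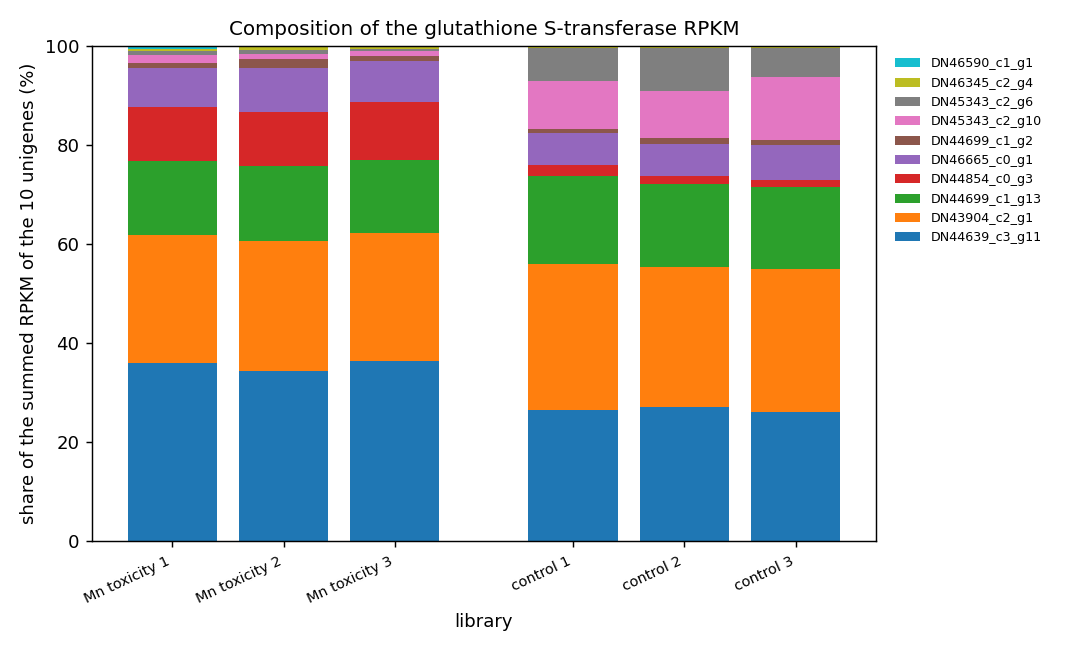
Share of each GST unigene in the summed RPKM of the 10 (%), stacked for the 3 Mn toxicity libraries at the left and the 3 control libraries at the right. The pink and grey blocks of component DN45343_c2 shrink to 1.44 to 2.36% under Mn toxicity, against 16.3 to 18.5% in the control, and the red block of TRINITY_DN44854_c0_g3 is the one that widens most in proportion.

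In limma, an adjusted p under 0.05 together with a log2 fold change of 1 or more, or of -1 or less, counted as a call. Of all 30913 unigenes tested, 5.78% were called, 2.09% higher and 3.69% lower under Mn toxicity, and the median log2 fold change was -0.20. After median-of-ratios scaling, 8.16% of 30716 were called, 4.44% higher and 3.72% lower, with a median of 0.01. The groups did not overlap for 32% of all tested unigenes as deposited and for 46.3% after scaling. Beside this, 9 of the 10 members passed the minimum mean of 0.5 RPKM, and 8 of these were called, 6 higher and 2 lower. After scaling, 9 were called, 7 higher and 2 lower, TRINITY_DN46345_c2_g4 being the one added at a log2 fold change of 1.13. The medians of the 9 were 1.15 as deposited and 1.39 after scaling. Without Mn toxicity library 1, 4 members were called, and without control libraries 1, 2 and 3 it was 2, 3 and 3. Calls over all unigenes fell as well, from 1787 of 30913 to 422 of 31080 without Mn toxicity library 1. Without control libraries 1, 2 and 3 they fell to 365 of 30789, 362 of 30888 and 394 of 30776. Since the members were drawn from the same contrast, nothing is read from their counts. The members closest to the limit of 1 were TRINITY_DN46345_c2_g4 at 0.98 and TRINITY_DN44699_c1_g13 at 1.10. The descriptions used here cover DEGs only, so no GST just outside the limit of the study can be named.

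The 3 Mn toxicity libraries differed in their values of the members, by an amount that depends on the scaling. Median-of-ratios scaling divided Mn toxicity libraries 1, 2 and 3 by 0.968, 1.28 and 0.623. Of the 7 fitted members that were higher, 6 had their highest deposited value in Mn toxicity library 3, whereas library 3 was the highest of the Mn toxicity libraries for 4.59% of all tested unigenes and for 16.9% of those called higher. After scaling, library 3 was the highest for all 7, for 42.8% of all tested unigenes and for 70.1% of those called higher. Of the 7 other GSTs described below, library 3 was the highest for 1 as deposited, and for all 7 after scaling. For example, the member TRINITY_DN44639_c3_g11 had 73.6, 46.0 and 130 RPKM after scaling in Mn toxicity libraries 1, 2 and 3, against 18.2, 20.1 and 19.2 RPKM in the control. As deposited, its Mn toxicity values were 71.3, 58.8 and 80.6 RPKM. The abundant unigenes described above took the largest share of reads in this same library 3 and the smallest in library 2. Their part in this order was not tested.

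**Figure D3:**
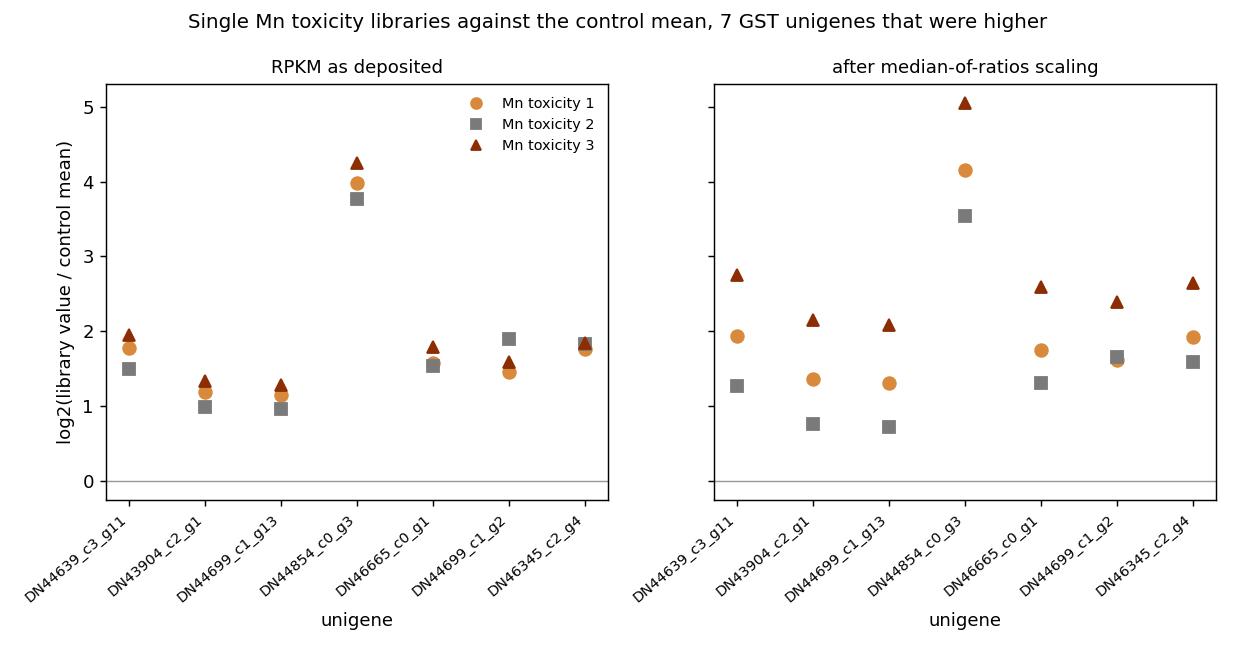
Log2 ratio of each Mn toxicity library to the control mean for the 7 fitted GST unigenes with higher values, as deposited (left) and after median-of-ratios scaling (right), with 1 symbol per library. Library 3 is the highest for 6 of the 7 as deposited and for all 7 after scaling, and all points lie above 0.

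The descriptions of DEGs used here, which hold a part of the study's full list, name a further 8 unigenes with a GST match, and these were selected by the same contrast as well. Of the 8, 7 were fitted, and all 7 had positive log2 fold changes and groups that did not overlap, against 32% of all tested unigenes without overlap. As selected DEGs, they too had to differ. A total of 4 were called, all higher, and 5 after scaling, against 5.78% and 8.16% of all unigenes tested. As deposited, 2 were called without Mn toxicity library 1, and 1, 1 and 2 without control libraries 1, 2 and 3. These fits also had fewer calls over all unigenes. The median log2 fold change was 1.17, against -0.20 over all unigenes tested.

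Among the GSTs that these descriptions name, the lambda class L3 unigene TRINITY_DN44512_c3_g1, outside the defense list, had the highest level. GSTs that are not DEGs carry no description here. It had 197, 192 and 159 RPKM under Mn toxicity, against 79.8, 75.6 and 87.3 RPKM in the control (log2 fold change 1.17, SE 0.18). Thus both lambda class unigenes described were higher in each Mn toxicity library. The tau class unigene TRINITY_DN46894_c1_g1, which matches soybean GSTU43 and a predicted chickpea GST named parA, had 31.8, 22.2 and 23.2 RPKM under Mn toxicity, against 5.76, 5.86 and 5.35 RPKM in the control (log2 fold change 2.07, SE 0.23). Next to TRINITY_DN44854_c0_g3, it had the widest fitted difference of the GSTs described.

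Also called were TRINITY_DN44699_c1_g5, which matches a GST of Arachis diogoi, and TRINITY_DN45499_c1_g3, which matches GST 1 of Arachis hypogaea. TRINITY_DN44699_c1_g5 had 2.74 ± 0.444 RPKM under Mn toxicity and 0.758 ± 0.216 RPKM in the control (log2 fold change 1.37; SD, n = 3 each). TRINITY_DN45499_c1_g3 had 16.4 ± 2.32 RPKM under Mn toxicity and 6.43 ± 1.39 RPKM in the control (log2 fold change 1.30; SD, n = 3 each). TRINITY_DN44639_c3_g4 (0.93), TRINITY_DN46665_c0_g2 (GST 15, 0.74) and TRINITY_DN44854_c0_g6 (GST 16, 0.66) were not called, and the first of them was called after scaling at 1.17. TRINITY_DN47701_c1_g7 (GST 9) had no read in the control libraries and 13, 3 and 7 reads in the Mn toxicity libraries. As it was above 0 in only 3 libraries, its recovered reads and length are lower limits. With these, its Mn toxicity mean was at least 2.35-fold higher than a floor set at 3 reads in each control library. Without Mn toxicity library 1, this bound was 1.55-fold. Over both lists, the unigenes of component DN45343_c2 were the ones with lower values under Mn toxicity.

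**Figure D4:**
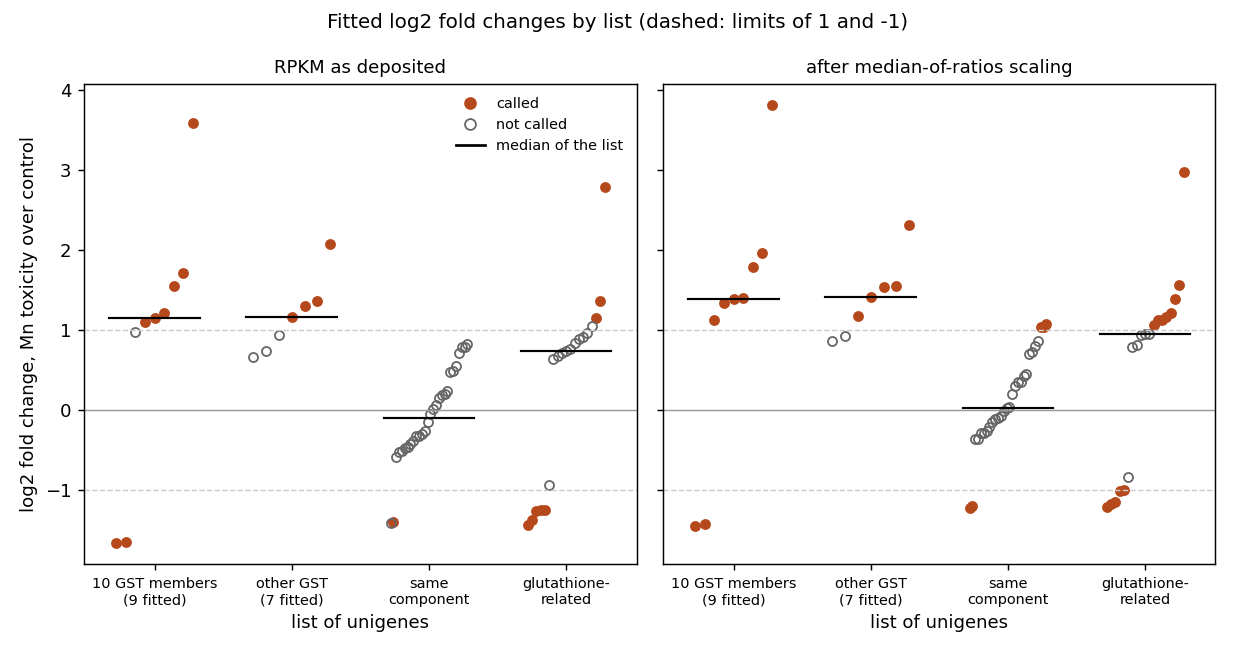
Log2 fold changes of Mn toxicity over control from limma for the GST members, the other GST unigenes, the further unigenes of the members' assembly components and the glutathione-related unigenes, as deposited (left) and after median-of-ratios scaling (right). Filled points were called, open points were not, and lines mark list medians of 1.15, 1.17, -0.10 and 0.74 as deposited.

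The assembler groups unigenes that share sequence into components, and the further unigenes of the members' components were not picked for their difference between the treatments. They were therefore tested, although they share sequence, and possibly reads, with members that were chosen by this contrast. The 10 members lie in 8 components, which hold 48 further unigenes besides the GSTs above. The list is also not wholly independent of the contrast because 4 GSTs of these components had been set apart as DEGs. Of the 4, 1 was called higher, TRINITY_DN44699_c1_g5. Among the 48, the study's lists of DEGs, as far as used here, also name TRINITY_DN46345_c2_g12 and TRINITY_DN44699_c1_g7. Of the 48, 28 passed the minimum and 20 did not. By limma with Benjamini-Hochberg adjustment, 1 of the 28 was called and it was lower, against 5.78% of all unigenes. At an unadjusted p under 0.05 in limma there were 7 of the 28, 5 of them higher, against 7529 of all 30913 unigenes tested. On the recovered reads, limma voom called 0 with library totals and 4 with median-of-ratios scaling. Over all 30913 unigenes tested, limma voom called 1450 with library totals and 3086 with median-of-ratios scaling. The median log2 fold change of the 28 was -0.10, against -0.20 over all unigenes tested.

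The called unigene was TRINITY_DN46345_c2_g12, described by a match to a dedicator of cytokinesis protein and not as a GST. As one of the study's own DEGs, its call repeats the authors' comparison in the same libraries. It had 1.86, 4.11 and 1.65 RPKM under Mn toxicity, against 6.73, 7.51 and 6.95 RPKM in the control (log2 fold change -1.40, SE 0.33, adjusted p = 0.033). The call was absent without Mn toxicity library 1 and without any 1 of the control libraries, and its adjusted p ran from 0.0021 to 0.16 over 26 alternatives. It shares a component with the GST TRINITY_DN46345_c2_g4, which was higher under Mn toxicity.

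In component DN44699_c1, which holds 3 GST unigenes with higher values, TRINITY_DN44699_c1_g8 and TRINITY_DN44699_c1_g10 were strongly expressed and passed the limit on p but not on the fold change. TRINITY_DN44699_c1_g8 had 356, 399 and 273 RPKM under Mn toxicity, against 194, 183 and 196 RPKM in the control (log2 fold change 0.82, SE 0.18, adjusted p = 0.028). TRINITY_DN44699_c1_g10 had 187, 195 and 156 RPKM under Mn toxicity, against 105, 99.6 and 105 RPKM in the control (log2 fold change 0.79, SE 0.17, adjusted p = 0.026). TRINITY_DN44699_c1_g7 (log2 fold change 0.79, SE 0.21, adjusted p = 0.051) is described as ribosomal protein L24e, so the members of a component are not all of 1 gene family. After scaling, these 3 were called, at log2 fold changes of 1.07, 1.04 and 1.04 (adjusted p = 0.0045, 0.0082 and 0.0034). Over the 26 alternatives the adjusted p of these 3 lay between 0.00056 and 0.67.

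TRINITY_DN44854_c0_g2, in the component of the GST with the widest difference, was not called. It had 87.2, 93.4 and 81.8 RPKM under Mn toxicity, against 56.6, 62.6 and 59.1 RPKM in the control (log2 fold change 0.55, SE 0.17, adjusted p = 0.084). TRINITY_DN44639_c3_g1 had 26.8, 31.3 and 21.0 RPKM under Mn toxicity, against 18.3, 17.7 and 19.8 RPKM in the control (log2 fold change 0.48, SE 0.22, adjusted p = 0.22). After scaling, the adjusted p of TRINITY_DN44854_c0_g2 was 0.031 at a log2 fold change of 0.80 and that of TRINITY_DN44639_c3_g1 was 0.0091 at 0.72, both below the limit on the fold change. Over the 26 alternatives, their adjusted p lay between 0.0040 and 0.88 and between 0.0015 and 0.94. In component DN45343_c2, the component of the 2 GSTs with lower values, the 6 further unigenes tested had log2 fold changes of -1.42 to -0.39. After scaling, these were -1.23 to -0.14. The lowest was that of TRINITY_DN45343_c2_g8. The others ran from -0.58 to -0.39 as deposited and from -0.37 to -0.14 after scaling. Medians over all unigenes tested were -0.20 as deposited and 0.01 after scaling. By limma, 0 of the 6 were called as deposited (adjusted p from 0.11 to 0.32), 1 had an unadjusted p under 0.05, and 1 was called after scaling.

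Glutathione-related unigenes were listed from the same descriptions of DEGs and were hence selected by the contrast as well. The descriptions name glutathione, glutaredoxin, glutamate-cysteine ligase, ascorbate peroxidase or C-family ABC transporters. The list also takes in 3 thioredoxin unigenes by their name, whether or not they act on glutathione. Of 19 such unigenes, all 19 were fitted and 8 were called, 3 higher and 5 lower, with a median log2 fold change of 0.74. Over all unigenes tested, 5.78% were called, 2.09% higher and 3.69% lower. After scaling 13 were called, 8 higher and 5 lower, against 8.16% of all unigenes tested. As deposited, 1 was called without Mn toxicity library 1 or without any 1 control library. These fits also had fewer calls over all unigenes. The 5 lower ones were ABC transporters of the C family and glutamate-cysteine ligase.

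Of the 5 unigenes described as C-family ABC transporters, which carry glutathione conjugates among other substrates, 4 were called and lower. TRINITY_DN47265_c0_g3 (member 4-like) was the strongest, with 33.6, 54.6 and 23.9 RPKM under Mn toxicity, against 84.8, 83.2 and 85.5 RPKM in the control (log2 fold change -1.25, SE 0.28). The 3 unigenes described as member 8 or 8-like, TRINITY_DN46918_c1_g1, TRINITY_DN46918_c1_g2 and TRINITY_DN45475_c3_g2, had log2 fold changes of -1.25, -1.37 and -1.44. For all 4, Mn toxicity library 2 had the highest deposited value of the Mn toxicity libraries, as it had for 85% of all unigenes called lower, and after scaling library 3 was the highest for TRINITY_DN46918_c1_g1. TRINITY_DN46702_c1_g1 (member 12-like) went the other way, with 10.5 ± 3.28 RPKM under Mn toxicity and 6.01 ± 0.118 RPKM in the control (SD, n = 3 each), and was not called (log2 fold change 0.71).

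Glutamate-cysteine ligase catalyses the first step of glutathione synthesis. Its unigene TRINITY_DN38292_c0_g2 had 6, 6 and 4 reads in the Mn toxicity libraries, against 43, 27 and 42 reads in the control libraries, or 0.138 ± 0.0315 RPKM under Mn toxicity and 1.05 ± 0.310 RPKM in the control (SD, n = 3 each; log2 fold change -1.26). The level was low in both treatments, and other unigenes of this enzyme are not described in the lists used here.

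Glutaredoxins reduce disulfides with glutathione as the electron donor. The unigenes with glutaredoxin in a description, 1 of them named prostaglandin E synthase 2-like, all had positive log2 fold changes. As selected DEGs, they had to differ. Of 5 unigenes, 2 were called and 4 after scaling, against 5.78% and 8.16% of all unigenes tested. Glutaredoxin-C4 (TRINITY_DN30581_c0_g1) had 42.9, 37.4 and 24.3 RPKM under Mn toxicity, against 16.7, 13.0 and 15.6 RPKM in the control (log2 fold change 1.15, SE 0.25). TRINITY_DN46575_c2_g1, matching a monothiol glutaredoxin, was called at 1.36, whereas TRINITY_DN23885_c0_g1 (glutaredoxin-C1, 0.97) and TRINITY_DN47128_c1_g2 (prostaglandin E synthase 2-like, 0.89) were called only after scaling, at 1.21 and 1.13.

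The widest difference of the glutathione-related unigenes was that of TRINITY_DN45281_c1_g1, a LanC-like protein annotated with glutathione binding. It had 9.92, 14.6 and 5.84 RPKM under Mn toxicity, against 0.891, 0.850 and 1.13 RPKM in the control (log2 fold change 2.78, SE 0.35). Cytosolic ascorbate peroxidase (TRINITY_DN40006_c1_g1), which removes hydrogen peroxide in a cycle that draws on glutathione, had the highest level of the list. It had 429, 485 and 377 RPKM under Mn toxicity, against 226, 228 and 229 RPKM in the control (log2 fold change 0.91, SE 0.16), and was called only after scaling, at 1.16. The other ascorbate peroxidase unigene of the list was weakly expressed and went the other way (log2 fold change -0.93, SE 0.34), and was not called. Thioredoxin unigene TRINITY_DN47193_c1_g1 had a log2 fold change of 0.83, and 1.06 after scaling.

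Among 1137 described DEGs with a mean of at least 2 RPKM, those most like the summed RPKM of the 8 higher GSTs were sought. Profiles over the 6 libraries were compared by the mean absolute difference of centred log2(RPKM + 0.5). The strongly expressed GSTs make up most of this sum. TRINITY_DN39780_c0_g1, a trypsin and protease inhibitor, was the nearest at 0.044, with 264, 217 and 275 RPKM under Mn toxicity, against 79.1, 79.3 and 80.8 RPKM in the control. It was followed by a β-1,3-glucanase, TRINITY_DN40993_c0_g1, at 0.11 and by a copper transport protein matching ATX1, TRINITY_DN45349_c0_g1, also at 0.11. For the sum of the 2 lower GSTs, the nearest were a protein phosphatase 2C (TRINITY_DN42894_c1_g1) at 0.13, a squamosa promoter-binding-like protein (TRINITY_DN45563_c0_g1) at 0.13 and an FKBP65-like peptidyl-prolyl isomerase (TRINITY_DN45910_c3_g3) at 0.14. All of these were selected by the contrast, so a shared difference between the treatments is part of each likeness.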

How the data were processed

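Leaf RNA of 6 libraries, 3 per treatment, was compared, with groups and replicate numbers taken from the sample labels. According to the study's methods, the authors assembled the reads with Trinity and mapped them with Bowtie2 (2.2.3 per the submitters' processing notes), estimated abundance with RSEM and deposited RPKM, 1 table per library, with no scaling between libraries stated. No genome was used. Descriptions and lists came from the study's supplementary lists of DEGs, of which the longest was used in part, and the authors' fold changes were not used.

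Whole reads and lengths were recovered from the RPKM steps (within 0.01 read for all 43500 unigenes above 0 in at least 4 libraries) with Python 3.11.15, numpy 2.4.6, pandas 2.3.3 and scipy 1.17.1. For unigenes above 0 in fewer libraries they are lower limits. Tests were two-sided moderated tests of log2(RPKM + 0.5) by limma (3.58.1, run in R 4.3.3), with an intensity trend and Benjamini-Hochberg adjustment over all unigenes with a mean of at least 0.5 RPKM. The script was tested on simulated data. The deposited RPKM are not counts, so limma replaced the authors' DESeq2, which was not run on the recovered reads. Those reads entered the tests only through limma voom as an alternative. Although the study names RSEM, the RPKM correspond to whole reads. How reads shared by similar unigenes were assigned is therefore not known here. SE are from limma, and intervals and floors cover counting error only.

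The named unigenes were all 10 members, all 8 other GSTs, those called among the component and glutathione-related unigenes with the 5 of highest mean level not called, and 3 for each likeness. The members and lists were chosen with earlier results of these data known. Alternatives were other pseudocounts, minimum values, scalings and variance models, limma voom on the recovered reads, a replicate block and fits without each library. Sequences of the unigenes were not analysed here.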

Additional observations from a re-analysis of the deposited data

How the results depend on the processing

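The sign of the log2 fold change was kept by all 35 unigenes fitted and named from the lists, under each alternative that fitted them. TRINITY_DN44854_c0_g3 was called in all 26 alternatives (log2 fold change 3.25 to 4.18), TRINITY_DN46345_c2_g4 in 6 of 25. The number of calls moved most with the scaling and with single libraries. With every library rescaled to the same sum of RPKM, 3 members, 0 other GSTs (2 with an unadjusted p under 0.05 in limma), 2 component and 3 glutathione-related unigenes were called, against 8, 4, 1 and 8. Over all unigenes, 1173 of 31672 were then called, against 1787 of 30913, and 6002 had an unadjusted p under 0.05 in limma. Leaving out 1 library gave 2 to 8 members, 1 to 5 other GSTs, 0 to 2 component and 1 to 10 related unigenes, and with median-of-ratios scaling 5 to 9, 4 to 7, 2 to 6 and 8 to 11. The low values came without Mn toxicity library 1 (4, 2, 0 and 1) and without control libraries 1 (2, 1, 0 and 1), 2 (3, 1, 0 and 1) and 3 (3, 2, 0 and 1). Calls over all unigenes also fell, from 1787 to 422 without Mn toxicity library 1 and to 365, 362 and 394 without control libraries 1, 2 and 3. Without Mn toxicity libraries 2 and 3 they rose to 4942 and 2901. Each of these fits has 1 library fewer, and the cause was not tested. Component and related unigenes called were 5 and 13 with median-of-ratios scaling, 3 and 13 with quantile normalization, 4 and 13 without the abundant unigenes (with 9 members and 6 other GSTs), 4 and 18 by limma voom with median-of-ratios scaling and 0 and 4 without a minimum RPKM. In the same order, calls over all unigenes were 2507 of 30716, 2567 of 30913, 2654 of 31968, 3086 of 30913 and 1276 of 51569. limma voom with library totals called 0 component unigenes and adjusted p alone 3, against 1450 and 2180 of all 30913. Of the component unigenes, 5 to 10 of 28 to 48 tested had an unadjusted p under 0.05 in limma in the fits that called 0. Over all unigenes, 4626 to 9429 of 30776 to 51569 tested did so in the same fits.

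The replicate numbers are shared by the treatments, but same-numbered libraries did not deviate together (correlations of 0.08, -0.15 and -0.08 for numbers 1, 2 and 3), so the numbers were not taken as pairs. With the number as a replicate block, 8 members, 4 other GSTs, 2 component and 8 related unigenes were called, and 8, 5, 4 and 11 with the replicate block and median-of-ratios scaling. Calls over all unigenes were 2693 of 30913 with the replicate block and 2303 of 30716 with both.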
